A study of Homo sapiens with 20 samples.

Results

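The genes described here are 10 genes of glucose uptake, glycolysis and lactate formation, HK1, HK2, SLC2A1, SLC2A3, LDHA, LDHB, PKM, PFKFB3, PFKFB4 and PDK1, followed in human cell lines and their proteasome inhibitor-resistant derivatives. They were chosen by name for their roles, and all 10 were found by symbol among the 18305 genes of the expression table. RNA-seq covered AMO1, L363 and RPMI-8226, which are multiple myeloma lines, and the B-lymphoblastoid line ARH-77. Wild-type (WT) cells were set beside cells with evolved resistance that were kept in 90 nM bortezomib (BtzR, in each of the 4 lines) or 90 nM carfilzomib (CfzR, in AMO1 and L363), which gives 10 groups of 2 libraries and 20 libraries in all. Both drugs inhibit the proteasome, the complex that degrades proteins marked with ubiquitin, and all groups shared the same RPMI-1640 medium with serum, penicillin-streptomycin and glutamine. The WT cells received no drug, and each resistant group is 1 derived line that was growing in its drug, so that acquired resistance, the presence of the drug and the history of that one line cannot be told apart. The methods of the study describe the replicates as biological, and the labels do not say how the cultures were kept apart, so the p-values below measure the spread between these libraries.

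Expression is given as FPKM, fragments counted for a gene and scaled to transcript length and to the mapped total of the library, which allows levels of different genes to be set side by side. The number of reads behind each value is unknown, as the files hold no counts. The 20 libraries were alike in summed FPKM, 457317 to 494850, and in the number of genes of at least 1 FPKM, 10455 to 11023, and replicates correlated at r = 0.986 to 0.998 over all tested genes. Plasma cell markers summed to 506 to 3687 FPKM in the 16 myeloma line libraries against 238 to 258 in the 4 ARH-77 libraries, while B-cell markers summed to 6.13 to 55.2 against 507 to 740. T-cell, monocyte and stromal markers stayed at or under 12.8, 8.56 and 1.76 FPKM in summed level in every library. The 2 libraries labelled AMO1 CfzR stood apart from their label. Their expression correlated at r = 0.986 to 0.992 with the 6 L363 libraries and at r = 0.878 to 0.883 with the 4 other AMO1 libraries, so they are called the libraries labelled AMO1 CfzR and are set beside both AMO1 WT and L363 WT.

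Glucose enters cells through facilitative transporters of the SLC2A (GLUT) family, is trapped as glucose-6-phosphate by hexokinases and is broken down by glycolysis to pyruvate. Pyruvate is either reduced to lactate by lactate dehydrogenase, which renews the NAD+ that glycolysis uses, or enters the mitochondria, where pyruvate dehydrogenase feeds it into the citric acid cycle. Many tumour cells make lactate even when oxygen is at hand, and several of these genes are well-known targets of the hypoxia-inducible factors and of MYC. In plasma cells glucose also feeds the glycosylation of secreted antibody.

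Among WT cells, the members differed most in which hexokinase and which glucose transporter was expressed. HK1 encodes the hexokinase of most tissues, and its FPKM was 36.69 and 42.1 in ARH-77 WT, 7.64 and 8.54 in AMO1 WT, 0.30 and 0.31 in RPMI-8226 WT and 0.07 and 0.06 in L363 WT. The libraries of the 4 lines did not overlap, and HK1 was under 1 FPKM in every L363 and RPMI-8226 library. HK2, the inducible hexokinase that binds to mitochondria, was far more even, with 21.64 and 25.58 in AMO1 WT and 12.27 to 17.41 in the WT libraries of the other lines. HK3 and HKDC1, further hexokinase genes, reached at most 0.07 and 0.14 FPKM in any library. HK2 FPKM was therefore 45.5 to 814 times that of HK1 in the libraries of L363 and RPMI-8226 and in those labelled AMO1 CfzR, 2.83 and 2.995 times in AMO1 WT and 0.403 to 0.558 times in ARH-77.

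SLC2A1 (GLUT1) is the transporter of basal glucose uptake and SLC2A3 (GLUT3) a transporter with high affinity for glucose, best known from neurons. SLC2A3 was 6.42 and 10.26 FPKM in AMO1 WT and 6.77 and 9.77 in ARH-77 WT, but 0.21 and 0.26 in L363 WT and 0.59 and 0.37 in RPMI-8226 WT. AMO1 and ARH-77 overlapped in this gene, and both lay above the other lines. SLC2A14, a near-identical copy of SLC2A3 that can share its reads, was at most 0.52 FPKM in any library. SLC2A1 had another order, with 25.13 and 23.89 in RPMI-8226 WT, 12.97 and 13.94 in ARH-77 WT, 10.87 and 13.29 in AMO1 WT and 5.92 and 9.04 in L363 WT. The ARH-77 and AMO1 libraries overlapped in SLC2A1 and the other lines stood apart on either side. In ARH-77 and AMO1, SLC2A3 FPKM was 0.522 to 1.13 times that of SLC2A1 outside the libraries labelled AMO1 CfzR, and in all remaining libraries it was 0.00563 to 0.112 times.

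**Figure D1:**
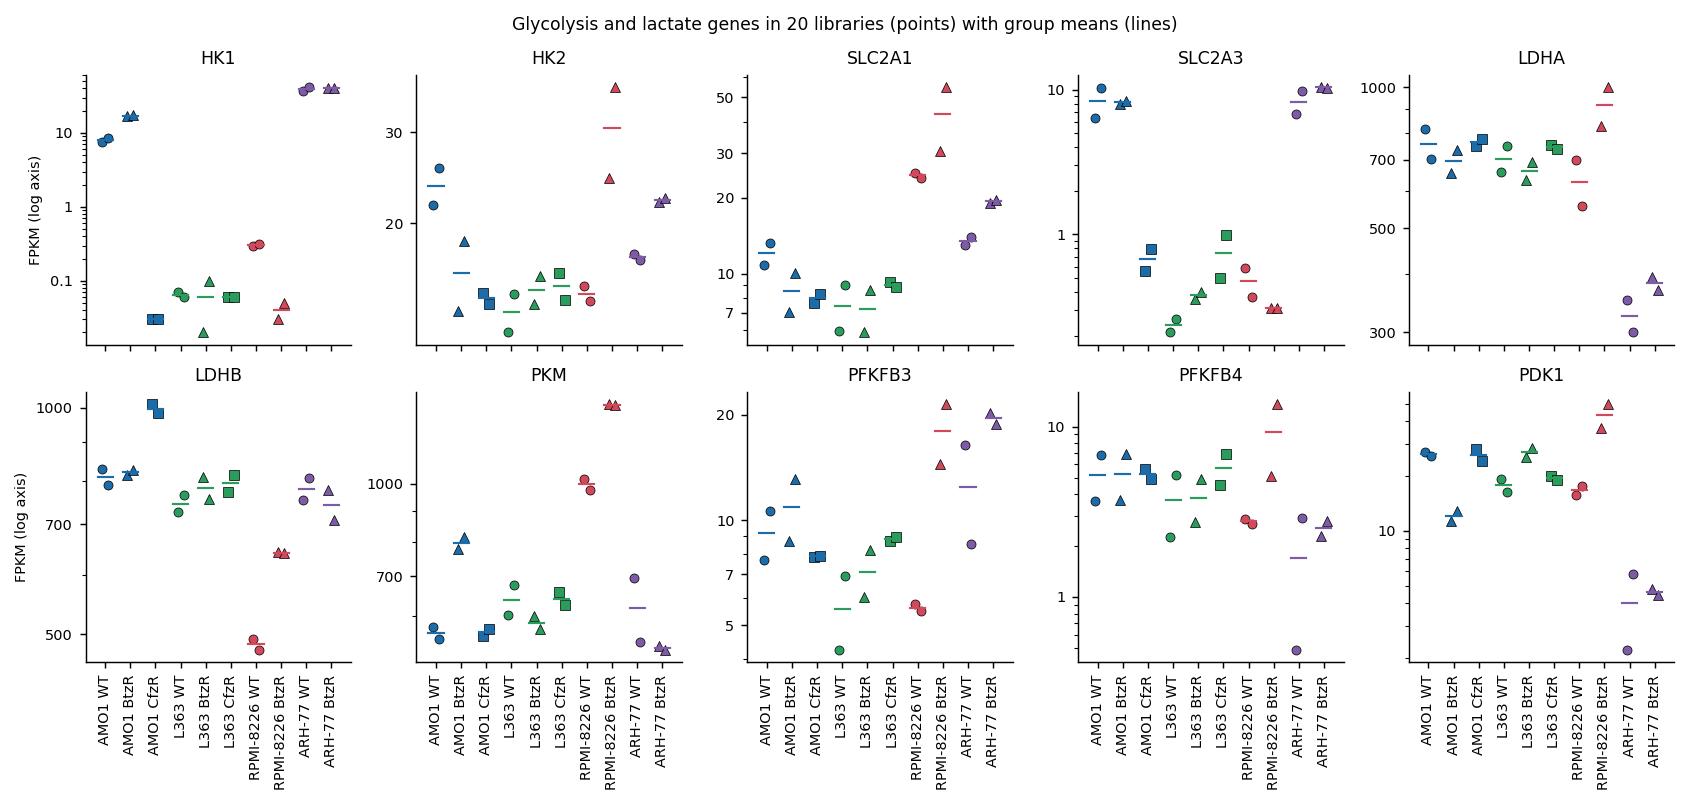
FPKM of the 10 genes (y axis, logarithmic, with a range of its own in each panel) in the 10 groups (x axis). Circles are WT, triangles BtzR and squares CfzR libraries, coloured by line, and short lines are group means. HK1 spans 0.02 to 42.1 FPKM and LDHB 477 to 1012.

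The enzymes at the end of the pathway were abundant in every library. PKM, pyruvate kinase, whose M1 and M2 isoforms cannot be separated in a value per gene, ranged from 528 to 1359 FPKM, LDHA from 299.8 to 1003 and LDHB from 477 to 1012. LDHA and LDHB encode the subunits of lactate dehydrogenase, and the LDHA-rich enzyme is commonly linked to lactate formation. LDHA was 351.23 and 299.77 in ARH-77 WT and 557.95 to 814.05 in the WT libraries of the myeloma lines, with no overlap. LDHB went the other way only in RPMI-8226, with 493.04 and 476.97 in WT against 727.6 to 828.84 in the WT libraries of the other lines. LDHB FPKM was 1.93 to 2.69 times that of LDHA in ARH-77, 1.02 to 1.35 times in AMO1 and L363 and 0.640 to 0.855 times in RPMI-8226.

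The control genes were expressed at lower levels. PFKFB3 and PFKFB4 make and break fructose-2,6-bisphosphate, the strongest activator of phosphofructokinase, and PDK1 is a kinase that switches pyruvate dehydrogenase off. PFKFB3 ranged from 4.26 to 21.44 FPKM, PFKFB4 from 0.49 to 13.56 and PDK1 from 2.22 to 49.63. PDK1 was 2.22 and 5.77 in ARH-77 WT, below the 15.68 to 26.92 of the WT libraries of the myeloma lines. Its relatives PDK2 and PDK3 reached at most 16.42 and 12.89, and PDK4 at most 0.02. PFKFB4 was 0.49 and 2.92 in ARH-77 WT, a gap between replicates of 1.40 on the log2(FPKM + 1) scale that was the largest for any member in any group.

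**Figure D2:**
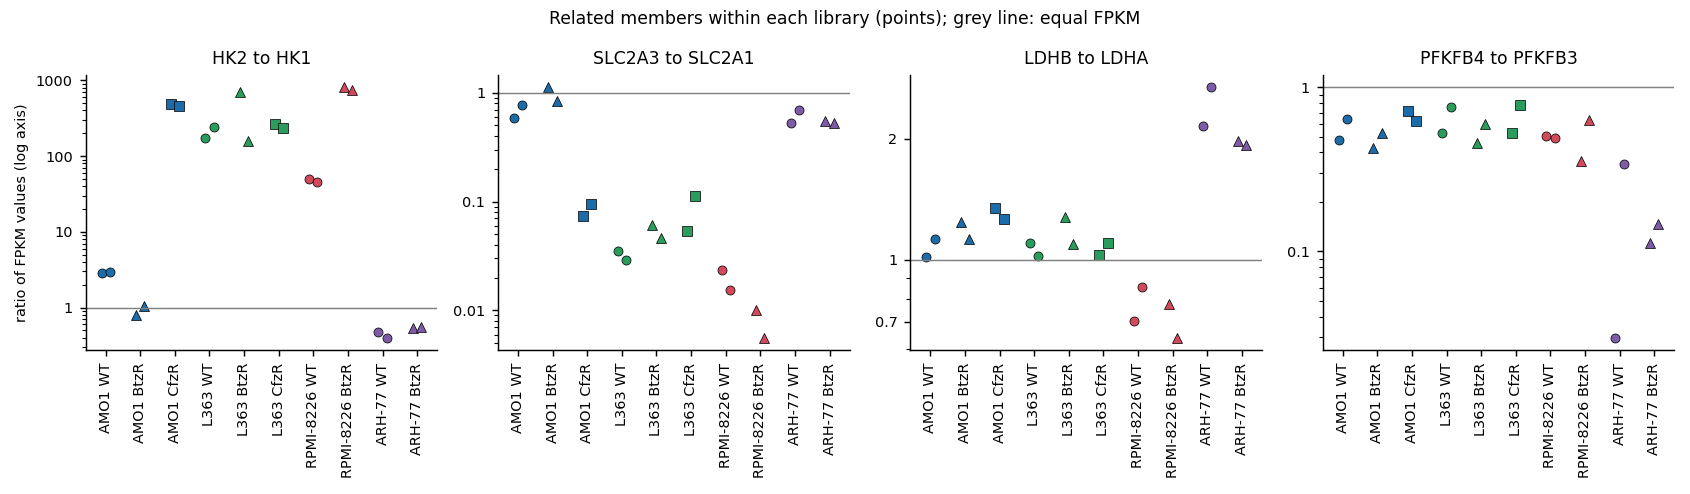
Ratio of the FPKM of related genes within each library (y axis, logarithmic) by group (x axis). Circles are WT, triangles BtzR and squares CfzR libraries, and the grey line marks equal FPKM. HK2 exceeds HK1 by 45.5 times or more in L363 and RPMI-8226, and only ARH-77 has LDHB at 1.93 times LDHA or above.

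Differences were tested with limma on log2(FPKM + 1), and a call required an adjusted p under 0.05, over the 13089 genes tested, with a log2-fold change of 1 or more in either direction. In bulk RNA a lower level in every cell and fewer expressing cells cannot be told apart. All 10 members passed the filter on low values. Between WT cells, HK1 was called higher in AMO1 than in L363 (log2-fold change 3.09 ± 0.08 (SE), adjusted p = 2.36e-13) and RPMI-8226 (2.80 ± 0.08), and was called lower than in ARH-77 in AMO1 (-2.15), RPMI-8226 (-4.95) and L363 (-5.24). SLC2A3 was called higher in AMO1 and ARH-77 than in L363 and RPMI-8226, with differences of 2.63 to 2.89 in size. PDK1 was called higher in each myeloma line than in ARH-77, by 2.55 ± 0.24 in AMO1, 2.01 ± 0.24 in L363 and 1.92 ± 0.24 in RPMI-8226. LDHA was called higher than in ARH-77 in AMO1 (1.22 ± 0.13) and L363 (1.11 ± 0.13), with 0.94 ± 0.13 in RPMI-8226. Both LDHA calls were lost with quantile normalization, at 0.95 in AMO1 and 0.94 in L363. The L363 difference in LDHA was also just under the fold threshold, at 0.998, without ARH-77 WT replicate 2. SLC2A1 was called lower in L363 than in RPMI-8226 (-1.61 ± 0.24, adjusted p = 3.16e-05). PFKFB4 was called between AMO1 and ARH-77 (1.32 ± 0.47, adjusted p = 0.0233), but was lost without ARH-77 WT replicate 1 (0.62, adjusted p = 0.297) or AMO1 WT replicate 2 (0.95, adjusted p = 0.179). The counts were 2 of 10 members for AMO1 against L363 and against RPMI-8226, where 16.6% and 21.9% of all tested genes were called, and 4 of 10 for AMO1 against ARH-77, where 24.3% were. They were 1 of 10 for L363 against RPMI-8226 (21.9% of all tested genes), 4 of 10 for L363 against ARH-77 (25.2%) and 3 of 10 for RPMI-8226 against ARH-77 (28.4%).

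The members changed most in RPMI-8226 BtzR. Of the 10 genes, 8 were higher than in RPMI-8226 WT and 3 were called higher, PFKFB3, PFKFB4 and PDK1, against 5.91% of all tested genes called higher, and none was called lower, against 7.92%. The adjusted p was under 0.05 for 9 of the 10, all but SLC2A3, in a comparison in which 54.3% of all tested genes had such a p. Under other settings 2 to 4 members were called. The median log2-fold change of the members was 0.63 against 0.05 over all tested genes. The called genes are those grouped above as control genes. HK2, at 0.991, lay just under the fold threshold, and the changes of the abundant PKM, LDHA and LDHB were smaller.

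PFKFB3 was 5.75 and 5.48 FPKM in RPMI-8226 WT and 14.42 and 21.44 in BtzR, a log2-fold change of 1.49 ± 0.27 (adjusted p = 0.000328). PDK1 was 15.68 and 17.64 in WT and 36.9 and 49.63 in BtzR, a change of 1.31 ± 0.24 (adjusted p = 0.000293). Both BtzR libraries lay above both WT libraries, and the changes stayed at 1.22 to 1.76 for PFKFB3 and 1.10 to 1.52 for PDK1 when any 1 of the 4 libraries was left out. PFKFB4 was 2.88 and 2.68 in WT and 5.15 and 13.56 in BtzR, a change of 1.32 ± 0.47 (adjusted p = 0.0287). This call rested on BtzR replicate 2, without which the change was 0.70 (adjusted p = 0.300), and it was also lost when either WT library was left out (adjusted p = 0.0908 and 0.107).

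HK2, which lay far above HK1 in this line, was 15.07 and 14.11 in WT and 24.42 and 36.75 in BtzR. Its log2-fold change of 0.991 ± 0.17 (adjusted p = 0.00014) lay just under the fold threshold. It was past it without BtzR replicate 1 (1.28) or WT replicate 1 (1.04), and was 0.71 without BtzR replicate 2. SLC2A1 was 25.13 and 23.89 in WT and 30.51 and 55.04 in BtzR, a change of 0.72 ± 0.24 (adjusted p = 0.0199) that was 0.31 (adjusted p = 0.304) without BtzR replicate 2 and 1.14 without BtzR replicate 1. In HK2 and SLC2A1, as in PFKFB3, PFKFB4, PDK1 and LDHA, BtzR replicate 2 lay above replicate 1.

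LDHA was 698.6 and 557.95 in WT and 827.67 and 1002.55 in BtzR, with a log2-fold change of 0.54 ± 0.13 (adjusted p = 0.00226). LDHB was 493.04 and 476.97 in WT and 642.47 and 641.95 in BtzR (0.40 ± 0.07, adjusted p = 0.000316), and PKM 1019.78 and 978.4 in WT and 1359.48 and 1353.85 in BtzR (0.44 ± 0.10, adjusted p = 0.00166). These 3 abundant genes passed the adjusted p threshold without reaching the fold threshold. WT and BtzR libraries did not overlap in any member here, not even in SLC2A3, which did not pass the adjusted p threshold. The share of all tested genes without overlap was not computed, so this count does not set the members apart. HK1 was 0.30 and 0.31 in WT and 0.03 and 0.05 in BtzR, a difference of -0.33 on the log2(FPKM + 1) scale (adjusted p = 0.00431) between levels that are all under 1 FPKM. Its size depended on the pseudocount, and with pseudocounts of 0.1 and 0.01 HK1 was called lower, at -1.54 and -2.68. SLC2A3, at 0.59 and 0.37 in WT and 0.31 and 0.31 in BtzR, did not pass (adjusted p = 0.465).

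**Figure D3:**
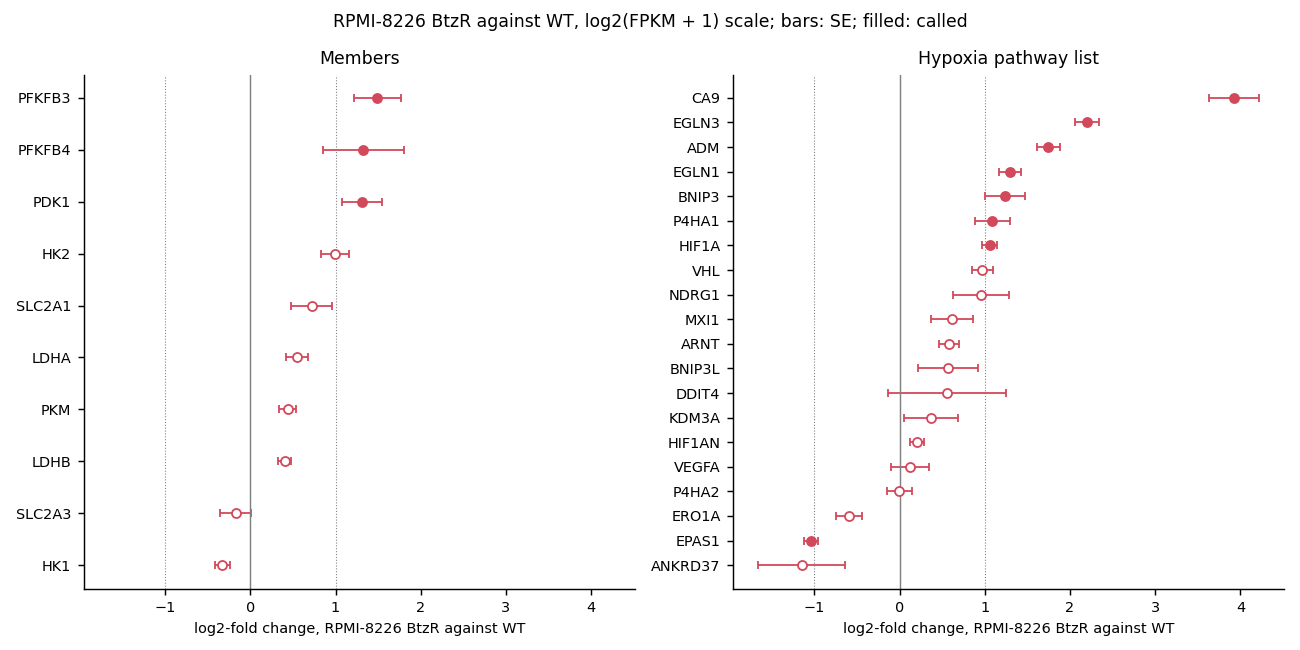
Log2-fold change of RPMI-8226 BtzR against WT (x axis, log2(FPKM + 1) scale) for the 10 members (left) and the 20 genes of the hypoxia pathway list (right), with bars of 1 SE and called genes filled. Dotted lines mark the fold threshold. PFKFB3, PFKFB4 and PDK1 are filled on the left, and 7 genes on the positive side and 1 on the negative side on the right.

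Genes of the hypoxia pathway also differed in this line. Of 20 listed genes, 7 were called higher in RPMI-8226 BtzR and 1 lower, against 5.91% and 7.92% of all tested genes. An adjusted p under 0.05 was found for 14 of the 20, against 54.3% of all tested genes, and the median log2-fold change was 0.59. CA9, a membrane carbonic anhydrase, was 1.26 and 0.63 FPKM in WT and 16.95 and 46.38 in BtzR (3.93 ± 0.30, adjusted p = 3.53e-08), and EGLN3, a prolyl hydroxylase that marks hypoxia-inducible factors for degradation, was 2.74 and 2.00 in WT and 12.05 and 17.18 in BtzR (2.201 ± 0.14, adjusted p = 6.68e-09). The others called higher were HIF1A, EGLN1, BNIP3, ADM and P4HA1, and EPAS1, which encodes HIF-2 alpha, was called lower (3.76 and 4.87 in WT, 1.45 and 1.71 in BtzR). HIF1A, which encodes the oxygen-regulated HIF-1 alpha subunit and is named here after its values were seen, was 17.07 and 18.54 in WT and 36.24 and 40.22 in BtzR (1.06 ± 0.09, adjusted p = 1.14e-07). The list's count depended on the BtzR library used, with 4 genes called higher without BtzR replicate 2 (EGLN1, CA9, ADM and EGLN3) and 10 without BtzR replicate 1. DDIT4, a stress-induced inhibitor of mTORC1 also named after its values were seen, was 78.44 and 94.59 in WT but 47.22 and 338.36 in the BtzR libraries.

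Most of the other genes around the members did not pass the fold threshold in RPMI-8226 BtzR. Of 16 other glycolytic enzymes tested, PGAM2, a muscle phosphoglycerate mutase, and ENO2, the neuronal enolase, were called higher and LDHD, a D-lactate dehydrogenase, lower, while 12 had an adjusted p under 0.05 (54.3% over all tested genes), with a median change of 0.30. Among 9 transporters, SLC16A3 (MCT4), which exports lactate, was called lower, from 31.47 and 29.15 FPKM in WT to 6.71 and 10.83 in BtzR (-1.71 ± 0.16, adjusted p = 2.9e-07), as was the fructose transporter SLC2A5. SLC16A1 (MCT1), another lactate transporter, was 32.17 and 30.27 in WT and 43.85 and 36.05 in BtzR (0.34 ± 0.12, adjusted p = 0.0288). The lactate transporter SLC16A7 was 1.05 and 1.35 in WT and 0.34 and 0.36 in BtzR (-0.70 ± 0.14, adjusted p = 0.000849 by limma). FBP1, a fructose-bisphosphatase of gluconeogenesis that works against glycolysis, was called lower, from 28.65 and 26.4 to 0.70 and 1.01 (-3.95 ± 0.08, adjusted p = 1.09e-14), and so was PC, pyruvate carboxylase, from 2.6 and 2.95 to 0.14 and 0.12. PFKFB2, the relative of PFKFB3 and PFKFB4, was 0.85 and 1.01 in WT and 0.02 and 0.07 in BtzR (-0.88 ± 0.14, adjusted p = 7.77e-05). In the same libraries the plasma cell markers TNFRSF17 and CD38 had means of 6.40 and 2.73 FPKM in BtzR against 96.1 and 51.2 in WT, while the other 5 listed plasma cell markers had means in BtzR and WT of 100.3 and 63.4 for IRF4, 334 and 247 for XBP1, 18.63 and 11.995 for PRDM1, 53.0 and 55.6 for SDC1 and 0.34 and 0.78 for SLAMF7. The part of these markers in the results was not tested.

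The sequences before the transcription starts of 4 members are shown because these genes had the largest log2-fold increases among the members in RPMI-8226 BtzR, where hypoxia genes were also called. In the RefSeq promoters of GRCh38.p14, 9 of the 10 members had an entry, all but SLC2A3, with 19 start sites in all. Each line gives the 250 bases before a start, 5′ to 3′ on the gene's strand, for the start site with most matches where a gene has several, and capitals mark the letters ACGTG or GCGTG, the core read by hypoxia-inducible factors, on either strand.
PFKFB3 (chr10:6202682-6202931, plus strand): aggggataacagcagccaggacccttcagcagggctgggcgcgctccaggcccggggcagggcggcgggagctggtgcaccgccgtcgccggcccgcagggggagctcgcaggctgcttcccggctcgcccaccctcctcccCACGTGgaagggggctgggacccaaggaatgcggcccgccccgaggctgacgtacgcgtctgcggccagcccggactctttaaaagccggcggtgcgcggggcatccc
PFKFB4 (chr3:48556804-48557053, minus strand): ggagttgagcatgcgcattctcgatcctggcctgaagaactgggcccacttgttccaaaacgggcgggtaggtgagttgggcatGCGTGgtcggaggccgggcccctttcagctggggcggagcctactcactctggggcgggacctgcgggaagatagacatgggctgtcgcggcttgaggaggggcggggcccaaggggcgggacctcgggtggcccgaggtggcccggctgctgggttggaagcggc
PDK1 (chr2:172555840-172556089, plus strand): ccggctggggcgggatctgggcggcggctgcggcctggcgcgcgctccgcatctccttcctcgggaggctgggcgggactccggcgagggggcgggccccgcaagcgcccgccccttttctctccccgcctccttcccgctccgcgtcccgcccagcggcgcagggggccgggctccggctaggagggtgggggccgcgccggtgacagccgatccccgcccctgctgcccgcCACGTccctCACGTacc
HK2 (chr2:74834920-74835169, plus strand): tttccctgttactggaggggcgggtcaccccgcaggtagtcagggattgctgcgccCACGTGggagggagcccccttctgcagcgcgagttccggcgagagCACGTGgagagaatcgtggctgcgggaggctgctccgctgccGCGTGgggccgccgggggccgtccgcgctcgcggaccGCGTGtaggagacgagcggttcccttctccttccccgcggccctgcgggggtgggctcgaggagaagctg
ACGTG or GCGTG was found before at least 1 start of 6 of the 9 members (HK1, HK2, LDHA, PFKFB3, PFKFB4 and PDK1) and of 47.4% of all 27305 genes in the promoter table. ACGTG alone was found for 4 of 9 members, against 21.7% of all genes, and the E-box letters CACGTG, which hold ACGTG on each strand and are read by MYC, for 3 of 9 (HK2, LDHA and PFKFB3), against 7.73%. SLC2A1, LDHB and PKM had no match in these windows. Genes with several start sites have more letters in which a match can fall, and a match says only that the letters are there.

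AMO1 BtzR had a different pattern from RPMI-8226 BtzR. PDK1 was the only member called, and it was called lower, with 26.92 and 25.83 FPKM in AMO1 WT and 11.32 and 12.82 in AMO1 BtzR (-1.07 ± 0.24, adjusted p = 0.00177). Over all tested genes 4.57% were called lower and 4.61% higher. HK1 was 7.64 and 8.54 in WT and 16.93 and 17.35 in BtzR, a log2-fold change of 0.998 ± 0.08 (adjusted p = 2.57e-07) that was just short of the fold threshold. PDK1 was likewise close to it, at -0.99 (adjusted p = 0.0192) without BtzR replicate 1. PKM was 576.68 and 549.56 in WT and 777.67 and 813.43 in BtzR (0.50 ± 0.10, adjusted p = 0.000762), and HK2 was 21.64 and 25.58 in WT and 13.53 and 18.47 in BtzR (-0.54 ± 0.17, adjusted p = 0.013). The HK2 difference did not pass without BtzR replicate 1 (-0.33, adjusted p = 0.174) or WT replicate 2 (-0.43, adjusted p = 0.110), nor in a fit of the compared libraries alone (adjusted p = 0.0881). The FPKM ratio of HK2 to HK1 was 0.799 and 1.06 in AMO1 BtzR against 2.83 and 2.995 in AMO1 WT. The other 6 members had adjusted p-values of 0.125 or above. For AMO1 BtzR the share of all tested genes with an adjusted p under 0.05 was not computed. The 4 members that passed this threshold therefore have no background to be set against.

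**Figure D4:**
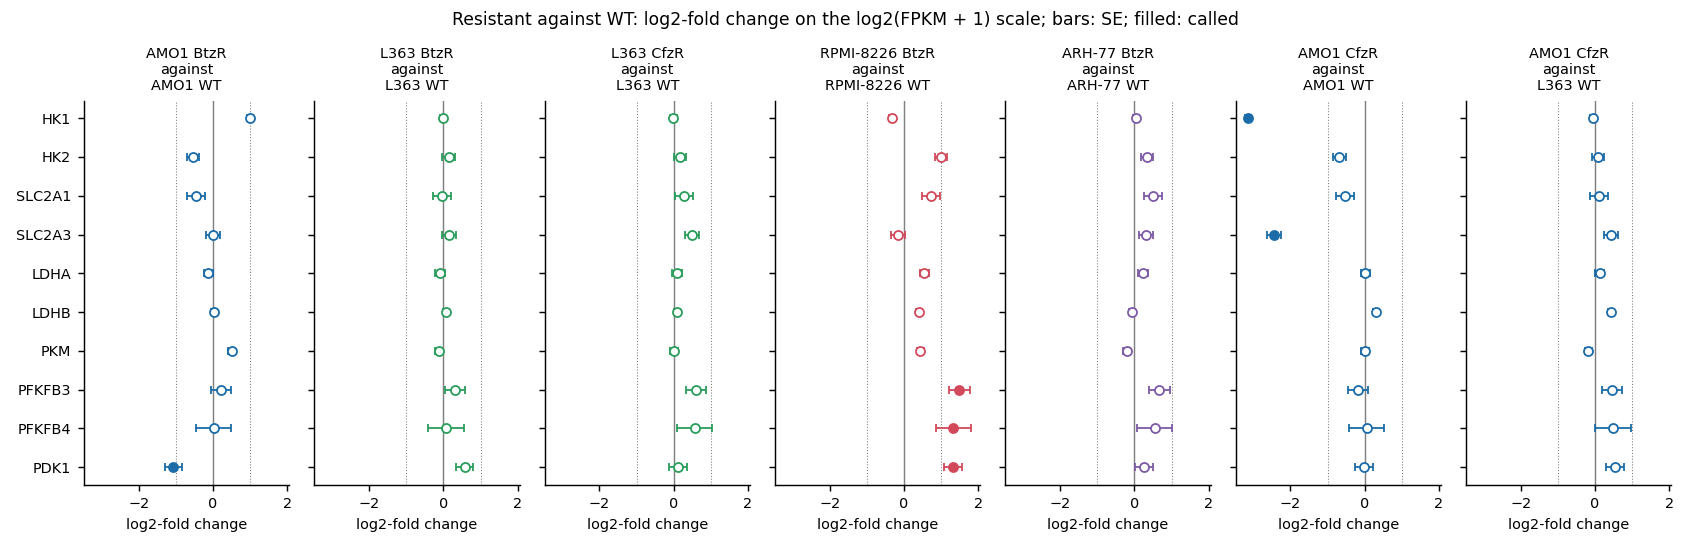
Log2-fold change of each member (x axis, log2(FPKM + 1) scale) in 7 comparisons of resistant with WT cells, with bars of 1 SE and called members filled. Dotted lines mark the fold threshold. PDK1 is filled on the negative side in AMO1 BtzR and on the positive side in RPMI-8226 BtzR, and no member is filled for L363 or ARH-77.

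Around the members, AMO1 BtzR differed at the same steps through other genes. PDK2 was called lower, at 15.47 and 16.42 FPKM in WT and 7.2 and 7.35 in BtzR (-1.03 ± 0.09), and PDK3, a further kinase of pyruvate dehydrogenase, higher, at 4.85 and 4.63 in WT and 12.35 and 11.6 in BtzR (1.18 ± 0.18). MPC1, a subunit of the carrier that brings pyruvate into mitochondria, was called higher, from 31.71 and 28.85 to 96.42 and 83.72 (1.54 ± 0.16, adjusted p = 2.13e-06). Of the 12 genes of pyruvate entry tested, 2 were called higher and 1 lower. Of the 9 transporters tested, 3 were called lower and 1 higher. The lactate transporters SLC16A1 (41.37 and 40.78 in WT, 16.91 and 18.44 in BtzR) and SLC16A7 (8.87 and 7.48 in WT, 1.87 and 2.03 in BtzR) were called lower. SLC2A5 was also called lower (3.32 and 5.57 in WT, 1.27 and 0.83 in BtzR). SLC2A8 was called higher (3.91 and 4.45 in WT, 9.18 and 9.63 in BtzR). ENO3, the muscle enolase, was called higher, from 5.84 and 6.52 to 53.39 and 45.12 (2.80 ± 0.14), and PFKM, a phosphofructokinase subunit, lower, from 80.14 and 88.66 to 39.02 and 40.49 (-1.07 ± 0.07), out of 16 other glycolytic enzymes. Of the 20 hypoxia genes, P4HA2 was called higher and ARNT and P4HA1 lower. No gene of the 6 glycolysis regulators was called.

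In 3 comparisons, L363 BtzR, L363 CfzR and ARH-77 BtzR, no member was called by limma and none had an adjusted p under 0.05. Over all tested genes 11.2%, 8.47% and 13.6% had such an adjusted p. The unadjusted p was under 0.05 for 1, 2 and 1 members. The share of all tested genes under it was not computed, but is at least as large as the shares just given. These counts therefore do not set the members apart. In L363 BtzR 1.02% of all tested genes were called higher and 1.05% lower, in L363 CfzR 1.11% and 0.825%, and in ARH-77 BtzR 0.955% and 0.649%, so that few genes of any kind were called there. In L363 the member with the largest difference under bortezomib was PDK1, at 19.26 and 16.41 FPKM in WT and 25.42 and 28.48 in BtzR (0.57 ± 0.24, unadjusted p = 0.0309, adjusted p = 0.156 by limma), and the L363 CfzR libraries, which share these WT libraries, had 19.98 and 18.92. PFKFB3 had the largest difference in L363 CfzR, at 8.69 and 8.92 against 4.26 and 6.9 in WT (0.60 ± 0.27, unadjusted p = 0.0447, adjusted p = 0.25 by limma). PFKFB3 was also the member that differed most in ARH-77 BtzR, at 20.24 and 18.86 against 16.37 and 8.52 in WT (0.68 ± 0.27, unadjusted p = 0.0274, adjusted p = 0.127 by limma), and its WT replicates were 0.87 apart on the log2(FPKM + 1) scale. The ARH-77 difference was 1.11 without WT replicate 1 (adjusted p = 0.0120) and 0.24 without WT replicate 2 (adjusted p = 0.649). SLC2A3 in L363 CfzR was 0.5 and 0.99 against 0.21 and 0.26 in WT (0.48 ± 0.18, adjusted p = 0.147 by limma).

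The genes around the members were little changed in these comparisons. In L363 BtzR MPC1 was called higher (36.96 and 32.32 in WT, 81.39 and 64.1 in BtzR), 1 of 12 genes of pyruvate entry. In L363 CfzR the transporter SLC2A6 was called higher (2.68 and 2.8 in WT, 7.12 and 7.25 in CfzR), 1 of 9. In ARH-77 BtzR SLC2A5 (23.09 and 8.54 in WT, 31.66 and 30.48 in BtzR) and HIF1A were called higher. HIF1A was 19.83 and 21.84 in ARH-77 WT and 44.83 and 42.92 in BtzR (1.04 ± 0.09, adjusted p = 1.81e-06), a difference of the size seen in RPMI-8226, while CA9 was listed at 0 in all 4 ARH-77 libraries. Of the 16 other glycolytic enzymes none was called in these groups, and 2, 1 and 4 had an adjusted p under 0.05 in L363 BtzR, L363 CfzR and ARH-77 BtzR by limma.

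The libraries labelled AMO1 CfzR had HK1 at 0.03 and 0.03 FPKM and SLC2A3 at 0.56 and 0.79, levels below those of every other AMO1 library and inside the ranges of the L363 libraries, 0.02 to 0.10 for HK1 and 0.21 to 0.99 for SLC2A3. Against AMO1 WT both were called lower, HK1 by -3.14 ± 0.08 (adjusted p = 2.07e-13) and SLC2A3 by -2.45 ± 0.18 (adjusted p = 2.88e-08), where 9.21% of all tested genes were called lower and 7.88% higher. Against L363 WT no member was called, and HK1 differed by -0.05 ± 0.08 and SLC2A3 by 0.44 ± 0.18 (adjusted p = 0.932 and 0.235), with 0.856% of all tested genes called higher and 0.802% lower. LDHB was the only member with an adjusted p under 0.05 in that comparison, against 6.92% of all tested genes. An unadjusted p under 0.05 was found for 3 members. Its share over all tested genes was not computed, but is at least that 6.92%, so the count cannot be judged. LDHB stood at 1011.73 and 983.11 against 727.6 and 764.9 in L363 WT (0.42 ± 0.07, adjusted p = 0.00196). Without the libraries labelled AMO1 CfzR in the fit, the members called in the remaining comparisons numbered the same as with them.

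Averaged over the 4 lines, the difference of BtzR from WT was positive for all 10 members. Its median was 0.18 for the members and -0.003 over all tested genes, whose share of positive values was not computed. No member was called by limma, against 0.527% of all tested genes called higher and 1.17% lower. The adjusted p by limma was under 0.05 for 5 members. They were PFKFB3 (0.68 ± 0.14, adjusted p = 0.00084), HK1 (0.17 ± 0.04), HK2 (0.23 ± 0.08), LDHB (0.11 ± 0.04) and PKM (0.15 ± 0.05). LDHA and PDK1 also had an unadjusted p under 0.05. Its share over all tested genes was not computed, but is at least the share at adjusted p given next. Over all tested genes 52.3% had an adjusted p under 0.05, so that the members' share was near the background. Over the 3 lines other than RPMI-8226, a mean added after the data were seen, 7 members were positive, only HK1 had an adjusted p under 0.05 (0.34 ± 0.05, adjusted p = 7.36e-05), and the mean was 0.40 ± 0.16 for PFKFB3 (adjusted p = 0.0552), -0.020 ± 0.10 for HK2 and -0.076 ± 0.14 for PDK1. HK1 itself was positive mainly through AMO1, and at the low levels of L363 and RPMI-8226 its mean depended on the pseudocount, since it was -0.13 with a pseudocount of 0.1 and -0.49 with 0.01. The BtzR effect differed between the lines for 8 members by limma's moderated F test, all but SLC2A3 (adjusted p = 0.357) and PFKFB4 (adjusted p = 0.261), and 71.1% of all tested genes passed the same test. PDK1 was the member called in opposite directions, -1.07 in AMO1 and 1.31 in RPMI-8226.

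The spread between replicates was uneven over the members and was largest for PFKFB4 and PFKFB3. The median gap between the 2 replicates of a group on the log2(FPKM + 1) scale was 0.69 for PFKFB4, 0.41 for PFKFB3 and 0.19 for SLC2A1, against 0.07 for LDHB and PKM and 0.02 for HK1. Replicate 2 was above replicate 1 in 8 of 10 groups for PFKFB4 and SLC2A1 and in 7 for PFKFB3 and SLC2A3. In the hypoxia list, 11 of 20 genes (55%) were higher in replicate 2 in at least 8 of 10 groups, against 14.6% of all tested genes, and 6 of 20 (30%) in 9 or 10 groups, against 5.39%. KDM3A and BNIP3L, named after their values were seen, were higher in replicate 2 in 10 of 10 groups, by medians of 0.34 and 0.29. The part of this difference in the values of PFKFB4, PFKFB3 and SLC2A1 was not tested.

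**Figure D5:**
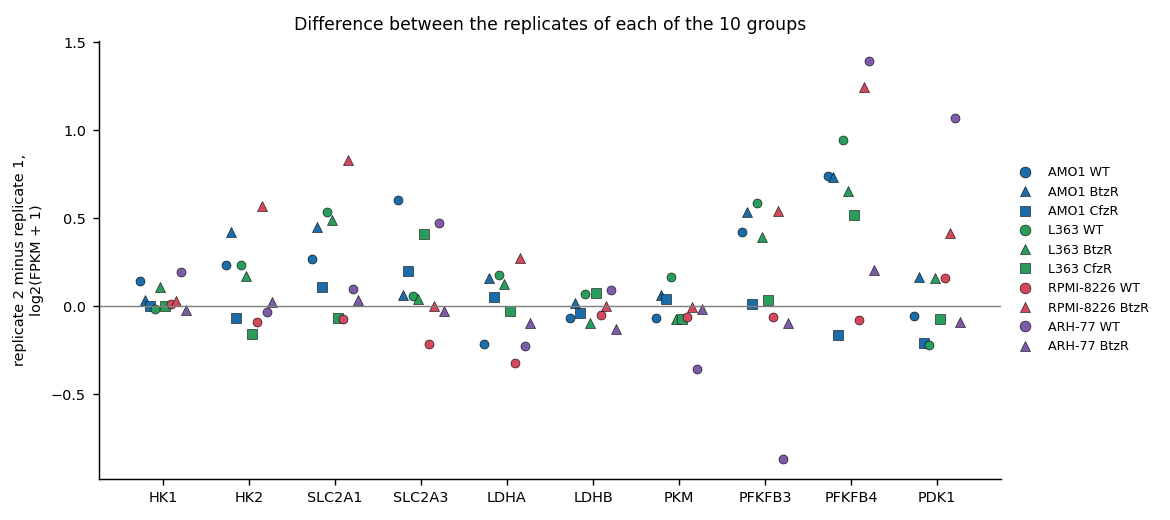
Difference of replicate 2 minus replicate 1 on the log2(FPKM + 1) scale (y axis) for each member (x axis) in the 10 groups, coloured by line (circles WT, triangles BtzR, squares CfzR). The points of PFKFB4 reach 1.40 and those of LDHB stay between -0.13 and 0.09.

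Over the 10 group means, the members did not form 1 common pattern. PDK1 followed LDHA (r = 0.944) and LDHA followed PFKFB4 (r = 0.888), HK1 followed SLC2A3 (r = 0.967), and HK1 and PDK1 ran in opposite directions (r = -0.82). These values describe 10 groups that come from 4 lines and share those lines, and they carry no test. For each member the 3 tested genes with the most similar group means were sought. For HK1 they were SPRY2, BATF3 and ZNF581 (r = 0.998, 0.994 and 0.993), for SLC2A3 GSTP1, ZBTB32 and PRKCA (r = 0.992, 0.989 and 0.986), and for PDK1 BTN2A1, ZBTB12 and MXI1 (r = 0.979, 0.972 and 0.961), of which MXI1 is on the hypoxia list. GSTP1, a glutathione transferase, was 491 and 595 FPKM on average in AMO1 WT and ARH-77 WT and at most 0.345 in the group means of L363, RPMI-8226 and the libraries labelled AMO1 CfzR. For LDHA the nearest were CHPF, ISCA1 and CUZD1 (r = 0.982, 0.973 and 0.967), for SLC2A1 NAPG, PDCD10 and ATRNL1 (r = 0.983, 0.971 and 0.963), and for PKM ACOT9, BMP7 and NPTXR (r = 0.976, 0.973 and 0.973). For HK2 (CRTC1, IAPP and CTDSP1), LDHB (NSUN2, TP53I3 and CMC1), PFKFB3 (FAM171A2, WSB2 and ACIN1) and PFKFB4 (FOXD1, VPS45 and EML5) the nearest genes lay at r = 0.92 to 0.959.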

How the data were processed

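The authors deposited 1 table of FPKM values, to 2 decimals, for 18305 genes in 20 libraries that BGI made and sequenced (BGISEQ-500). The submitters' processing notes name HISAT2 2.0.4, Bowtie2 2.2.5 and RSEM 1.2.12, without role or order, and the genome build is not given in the sources used here. Depth is unknown, so no counting interval was computed. Precision rests on the gaps between replicates, which the fit pools for each gene over the 10 groups. A gene therefore has the same SE in every comparison of 2 groups, also where the replicates of those groups lie close together.

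Libraries were grouped by line, drug and replicate number from their labels. Genes with a group mean of 1 FPKM or more anywhere were kept (13089), and limma 3.58.1 (R 4.3.3) was fitted to log2(FPKM + 1) with 10 group means over all libraries and a mean-variance trend, which left 10 residual degrees of freedom. P-values were adjusted by Benjamini-Hochberg over all tested genes. Fold changes on this scale understate those of low genes. Permuting 2 against 2 libraries exactly cannot give a two-sided p below 0.33, so no such test was run. Effects were compared between lines with a moderated F test in limma. The fit was tested on simulated data. Python 3.11.15, numpy 2.4.6, pandas 2.3.3 and matplotlib 3.10.9 served for levels, motif counts and plots.

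The members, the 5 lists (other glycolytic enzymes, glucose and lactate transport, pyruvate entry into mitochondria, glycolysis regulators, hypoxia pathway) and the tests were chosen with earlier results of these data known. Named are all members, up to 2 called genes of each list with the largest change in each direction, listed genes at the step of a member, and the 3 genes most like a member. Called list genes are named only where BtzR groups and L363 CfzR are compared with WT of the same line. Alternatives were pseudocounts of 0.1 and 0.01, other filters on low values, rescaling to the same sum, quantile normalization, no trend, a replicate block, a fit of the compared libraries alone, and each library left out. A fit without the libraries labelled AMO1 CfzR, a mean without RPMI-8226 and the lists without each RPMI-8226 library were added after seeing the data.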

Additional observations from a re-analysis of the deposited data

Results flagged for a closer look

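The BtzR effect (BtzR minus WT) differed between AMO1, L363, RPMI-8226 and ARH-77 for 8 of the 10 members by the moderated F test. The adjusted p was 1.42e-06 for HK1, 0.000183 for PDK1, 0.000397 for HK2, 0.0005002 for PKM, 0.00508 for LDHB, 0.0129 for LDHA, 0.0236 for SLC2A1 and 0.0322 for PFKFB3. As 71.1% of all tested genes passed this test, passing it does not set the members apart. For HK1 the effect was 0.998 in AMO1 and between -0.33 and 0.04 in the other lines. HK2 had -0.54 in AMO1 and 0.991 in RPMI-8226, and PDK1 -1.07 and 1.31. PKM was higher by 0.50 in AMO1 and 0.44 in RPMI-8226 and had -0.13 in L363 and -0.21 in ARH-77. LDHA and LDHB reached 0.54 and 0.40 in RPMI-8226, and lay between -0.12 and 0.23 and between -0.07 and 0.07 in the other lines. SLC2A1 had 0.72 in RPMI-8226 and -0.46 in AMO1. PFKFB3 was positive in all 4 lines, from 0.22 in AMO1 to 1.49 in RPMI-8226.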

How the results depend on the processing

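Of the 22 called values of members, 17 kept direction and call under all alternatives and 5 lost the call under at least 1, while 16 uncalled values were called under at least 1. With pseudocounts of 0.1 and 0.01, 2 members were called in AMO1 BtzR in place of 1 (also with quantile normalization), 1 in place of 0 in L363 CfzR and in the libraries labelled AMO1 CfzR against L363 WT, and 2 in place of 1 for L363 WT against RPMI-8226 WT. PFKFB4 in RPMI-8226 BtzR lost its call with these pseudocounts, with no filter and with the compared libraries only (adjusted p = 0.054, 0.0688, 0.0535 and 0.0909 by limma). Among the 83 values with an adjusted p under 0.05 in any fit, signs turned for the mean of HK1 over the 4 lines (-0.13 and -0.49 with these pseudocounts), for the means of HK2, SLC2A1 and PDK1 without RPMI-8226 (-0.020, -0.0022 and -0.076), for LDHB in AMO1 WT against ARH-77 WT (-0.18 with quantile normalization) and for PKM in L363 WT against ARH-77 WT (-0.027 rescaled to the same sum, -0.085 with quantile normalization). Of the 57 other values, 28 changed sign somewhere and are not listed. The cause was not tested.

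Leaving out each library in turn gave 1 to 2 members called in AMO1 BtzR, 2 to 5 in RPMI-8226 BtzR (5 without BtzR replicate 1), 0 to 1 in ARH-77 BtzR (1 without WT replicate 1), 3 to 5 for RPMI-8226 WT against ARH-77 WT (5 without ARH-77 WT replicate 2) and 5 to 8 members whose effect differed between the lines (5 without RPMI-8226 WT replicate 2). Among the same 83 values, signs turned for PDK1 in ARH-77 BtzR (-0.27 to 0.80) and, against ARH-77 WT, for PKM (-0.30 to 0.052) and PFKFB3 (-0.79 to 0.078) in AMO1 WT, PKM in L363 WT (-0.12 to 0.24) and PFKFB4 in RPMI-8226 WT (-0.053 to 1.34).

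The labels do not say that replicate numbers pair samples, and deviations of same-numbered libraries correlated above 0.1 in 22 of 45 pairs of groups. With a replicate block the members called were as many as without it in every comparison (3 in RPMI-8226 BtzR), and 9 in place of 8 differed between the lines.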

Other observations

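Genes around the members also differed where no member was called. In ARH-77 BtzR the lactate exporter gene SLC16A3 was 40.61 and 44.83 FPKM against 20.26 and 24.6 in WT (0.90 ± 0.16, adjusted p = 0.00107 by limma), under the fold threshold and opposite in sign to RPMI-8226 BtzR. ARNT, which encodes the partner of the HIF alpha subunits, was 96.92 and 112.12 FPKM in AMO1 WT and 9.24 to 23.57 in the WT libraries of the other lines. These genes were singled out after their values were seen.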
